A study of Mus musculus with 2 samples.

Results

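The clustered protocadherins are cell-surface cadherins encoded side by side in 3 gene clusters, Pcdh alpha, Pcdh beta and Pcdh gamma. All genes of the deposited matrices whose symbol starts with Pcdha, Pcdhb or Pcdhg were taken. This gave 57 of 32285 genes, of which 14 were alpha, 22 beta and 21 gamma genes. On the mouse build GRCm38 (RefSeq) the members lay on chromosome 18, with the alpha genes between 36930285 and 37188897, the beta genes between 37264998 and 37521419 and the gamma genes between 37661775 and 37841873. One symbol, Pcdha11, was listed for 2 gene identifiers, and ENSMUSG00000007440 is called Pcdha10 here after the GENCODE vM39 annotation.

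Each protocadherin of these clusters is made from its own promoter, and single neurons are known to use only some of them, with different sets in neighbouring cells. The proteins bind copies of themselves on other membranes, so that shared sets let branches of the same neuron recognise and avoid each other, and gamma genes also serve neuronal survival. Promoter use depends on CTCF, cohesin and DNA methylation. The 5 so-called C-type genes at the ends of the alpha and gamma clusters (Pcdhac1, Pcdhac2, Pcdhgc3, Pcdhgc4 and Pcdhgc5) are known to be used more uniformly.

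Single-cell RNA sequencing libraries of the dorsal telencephalon at embryonic day 16.5 were compared. The samples were 2 wild-type (WT) embryonic brains, the controls of a series on an Emx1-Cre conditional knockout that is not analysed here, and are called WT replicate 1 and WT replicate 6. Emx1-Cre acts in the dorsal telencephalic lineage, and whether the WT animals carried a Cre or floxed allele was not given in the labels. Cells with 1500 to 60000 UMIs (unique molecular identifiers, each standing for a captured mRNA molecule) and under 10% mitochondrial UMIs were used, and 920 and 857 likely doublets were removed. This left 7219 and 7352 cells with 52272659 and 50732603 UMIs, and 19 barcodes were shared by both libraries. Cell classes were assigned by the number of marker genes with a UMI: radial glial cells (RGCs, 272 and 280 cells), intermediate progenitors (IPCs, 166 and 187), excitatory neurons (2453 and 2748), GABAergic interneurons (1475 and 1449), striatal neurons, ganglionic eminence (GE) progenitors, Cajal-Retzius cells (35 and 27), and non-neural classes. Another 1514 and 1387 cells passed no gate, with median depths of 2618 and 2845 UMIs, and 503 and 477 passed several gates. These cells are in no class. The interneuron gate counted general GABAergic markers and left out cells with 3 or more striatal markers. Of the interneurons, 583 and 566 were typed as from the medial ganglionic eminence (MGE-type) and 153 and 168 as from the caudal one (CGE-type). The rest were not typed, so the class need not hold cortical interneurons alone. Between 16.1% and 31.7% of the cells of the RGC, IPC, excitatory, interneuron and Cajal-Retzius classes sat exactly at their gate. Neurod6, an excitatory marker, had a UMI in 95.7% of excitatory neurons but also in 19.9% of microglia and 21.2% of RGCs. Whether free RNA, remaining doublets or the gates gave these UMIs was not tested.

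The libraries were read from the 3′ end, which limits what a UMI of a member means. In the GENCODE annotation all 14 alpha genes and all 21 gamma genes had coding transcripts that ended within 100 bases of a common 3′ end, because each own exon is spliced to shared constant exons. A read in those exons fits several genes and cannot name a member. Alpha 1 to 12 genes had 45.1% to 61.6% of their exonic bases to themselves, and gamma A and B genes 32.6% to 67.8%. Beta genes have own 3′ ends and 90.3% to 100% own bases. If only exonic reads were counted, the counts of alpha and gamma members came from reads that reached own exons, and their sums understate the clusters. Whether intronic reads also entered these counts was not given in the sources used here. Levels are therefore compared between cell classes for the same gene rather than between clusters. How reads shared by several genes were treated beyond the software's counting was not given in the sources used here.

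Over all kept cells 2612 UMIs were assigned to alpha, 4437 to beta and 9872 to gamma members, and all 57 members had at least 1 UMI. Pcdhga12 with 1139 UMIs and Pcdhgc3 with 1075 UMIs were the most counted members. The leading alpha members were Pcdha11 (719 UMIs), Pcdha5 (342), Pcdha9 (331), Pcdha12 (257) and Pcdha4 (225). The leading beta members were Pcdhb7 (582 UMIs), Pcdhb17 (505), Pcdhb19 (478), Pcdhb20 (415) and Pcdhb16 (351), while Pcdhb1 had 1 UMI. Per kb of own exon the count ran from 0.386 to 166 UMIs among the beta genes, with a median of 35.4, and from 56.1 to 251 among the gamma A and B genes, with a median of 130. UMIs read from the 3′ end need not scale with exon length, so this count is no RNA level and does not compare clusters. With the C-type genes left out, the count per own kb tended to be higher later in the chromosomal order of each cluster. Spearman rho with gene order was 0.44 over 22 beta genes, 0.63 over 18 gamma A and B genes and 0.50 over 12 alpha genes. Of the C-type genes, which come last, Pcdhac1 had 13.3 UMIs per own kb and Pcdhgc5 51.6, below every other member of their clusters. Pcdhac2 had 55.4, Pcdhgc4 190 and Pcdhgc3 318. These correlations run across genes of the same libraries, which are not independent, and carry no test.

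Alpha RNA was found mainly in the 4 neuronal classes, beta RNA was 5.11-fold higher in excitatory neurons than in RGCs, and gamma RNA was found in neurons, progenitors, fibroblasts and vascular cells alike. Levels are given as CPM, the UMIs of a gene or cluster per 1000000 UMIs of the class in that library. The summed alpha level in WT replicates 1 and 6 was 2.14 and 1.52 CPM in RGCs, 8.90 and 4.15 in IPCs, 31.8 and 28.4 in excitatory neurons and 47.7 and 42.4 in interneurons. No library of a neuronal class overlapped with any progenitor library. The RGC mean of 1.83 ± 0.44 (SD, n = 2) was within the spread of microglia, 2.01 ± 2.84. Summed alpha was higher in excitatory neurons than in RGCs by 3.78 and 4.06 on the log2 scale in the same libraries, a mean of 15.1-fold. With likely doublets kept this mean was 6.68-fold, so that the size of the difference, though not its direction, moved with doublet removal.

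The beta sum was 10.4 and 10.6 CPM in RGCs, 21.6 and 10.7 in IPCs, 59.5 and 49.99 in excitatory neurons and 59.4 and 47.3 in interneurons. Excitatory neurons exceeded RGCs by 2.50 and 2.21 log2 units, a mean of 5.11-fold, and interneurons by 2.49 and 2.13. Microglia had 7.58 and 8.03 CPM of beta, near the RGC level, so these folds are taken against a low level. Both IPC libraries lay above both RGC libraries, by 1.06 and 0.02 log2 units in the same libraries, and the mean difference was within its spread (0.54 ± 0.73, SD, n = 2). The gamma sum was 80.1 and 58.7 in RGCs, 81.3 and 79.9 in IPCs, 102 and 108 in excitatory neurons and 95.2 and 109 in interneurons. Excitatory neurons were above RGCs in both libraries, by 0.34 and 0.88 log2 units. Gamma members held 85.0% of the clustered protocadherin UMIs of RGCs, 55.3% in excitatory neurons and 50.7% in interneurons.

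**Figure D1:**
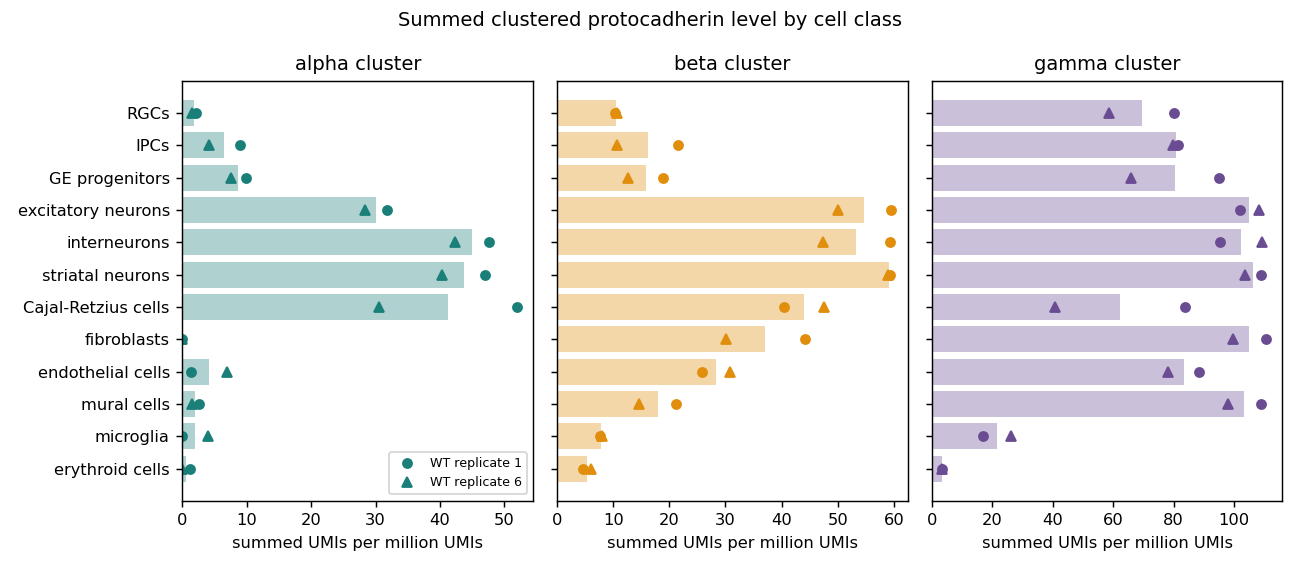
Summed CPM of the alpha, beta and gamma members (horizontal axis) in 12 cell classes, with bars for the mean and points for WT replicate 1 (circles) and WT replicate 6 (triangles). Alpha lay at or under 9.81 in every class that is not neuronal, whereas gamma lay between 40.7 and 110 in each class other than microglia and erythroid cells.

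Outside the neural lineage the clusters parted. Fibroblasts had 221 gamma UMIs (110 and 99.5 CPM) and 78 beta UMIs (44.2 and 30.05 CPM), but 0 alpha UMIs among 1040916 and 1064982 UMIs. That count of 0 allows up to 1.42 CPM of alpha, at least 21.1-fold below excitatory neurons. The beta sum of fibroblasts exceeded that of RGCs by 2.08 and 1.499 log2 units. Endothelial cells had 25.9 and 30.7 beta and 88.6 and 78.2 CPM of gamma, and mural cells 21.3 and 14.6 beta and 109 and 97.9 CPM of gamma. Alpha was at 1.36 and 6.99 CPM in endothelial cells and 2.50 and 1.46 in mural cells. In erythroid cells, gated at 30% or more globin UMIs, the alpha, beta and gamma sums were 0.59, 5.34 and 3.47 CPM. Microglia had a gamma sum of 17.1 and 26.1, below every other class except erythroid cells.

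Detection per cell was compared after every cell was thinned to 2000 UMIs, since median depth differed between classes (8615 and 7774 UMIs in excitatory neurons, 4117 and 3618 in interneurons, 9781 and 8948 in RGCs). Intervals below are 95% Wilson intervals and cover counting error only. An alpha UMI was found in 6.16% (5.27 to 7.19) and 5.21% (4.43 to 6.11) of excitatory neurons, and in 8.52% (7.12 to 10.2) and 102 of 1275 (6.63% to 9.62%) of interneurons. In RGCs it was found in 0 of 272 cells, which allows up to 1.10%, and in 2 of 280 cells (0.714%). Erythroid cells had 0 of 161 and 0 of 208 cells with an alpha UMI, and microglia 0 of 58 and 0 of 59. The alpha intervals of both neuronal classes lay above those of RGCs in each library.

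A beta UMI was found in 11.6% and 8.80% of excitatory neurons, 10.4% and 9.57% of interneurons and 1.47% and 1.43% of RGCs. Erythroid cells gave 0 of 161 and 1 of 208 cells for beta, and the RGC intervals (0.573 to 3.72 and 0.557 to 3.61) overlapped with those of erythroid cells. A gamma UMI was found in 19.9% and 19.4% of excitatory neurons, 16.6% and 19.1% of interneurons and 14.0% and 13.2% of RGCs, against 0.621% and 1.44% of erythroid cells and 6.90% and 8.47% of microglia. Without thinning the shares rose with depth, to 54.6% and 53.0% of excitatory neurons, 33.3% and 34.2% of interneurons and 48.2% and 40.0% of RGCs for gamma, so that the unthinned order of classes followed depth as well as level. Thinning left out 55 excitatory neurons, 346 interneurons, 89 erythroid cells and 24 microglia that had fewer UMIs, and no RGC.

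At 2000 UMIs 68.1% of excitatory neurons showed no member, 25.9% showed 1 and 5.97% showed 2 or more. The mean number of distinct members was 0.389 in excitatory neurons, 0.393 in interneurons and 0.172 in RGCs. In cells thinned to 8000 UMIs it was 1.36 in 2697 excitatory neurons, 1.47 in 241 interneurons and 0.564 in 353 RGCs. At full depth up to 11 members were seen in an excitatory neuron. These counts are floors set by depth and say nothing of how many members a cell uses.

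**Figure D2:**
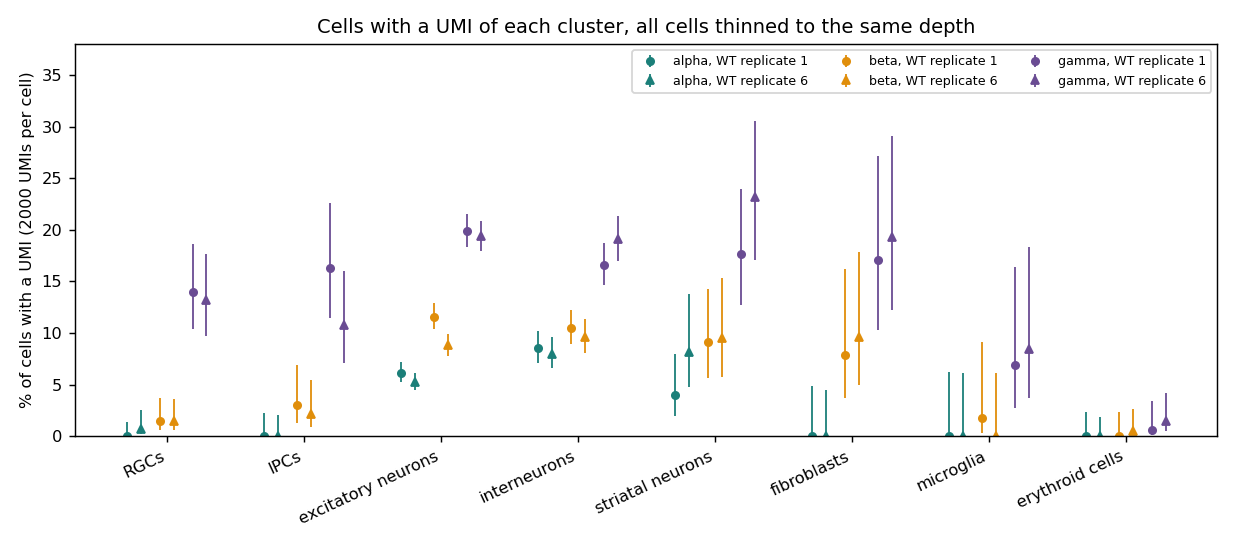
Share of cells with at least 1 UMI of the alpha, beta or gamma cluster (vertical axis, %) at 2000 UMIs per cell in 8 cell classes, with 95% Wilson intervals for each library. Alpha and beta shares of neurons stand above those of RGCs, while gamma was found in 13.2% of RGCs or more.

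The next question was whether the UMIs of a cell come from the same member more often than UMIs of different cells of that class. Pairs of UMIs within a cluster were counted, without the C-type genes. In excitatory neurons 28.7% and 31.6% of the beta pairs found in the same cell were from the same gene, against 7.95% and 7.32% of pairs from different cells. For alpha 1 to 12 these shares were 34.6% and 38.2% against 16.9% and 16.4%, and for gamma A and B 21.4% and 22.0% against 7.19% and 7.30%. In both libraries and in all 3 clusters the same-cell share was above the different-cell share by more than the spread between libraries. It rested on 542 cells with 2 or more beta UMIs, 219 with 2 or more alpha UMIs and 930 with 2 or more gamma A and B UMIs.

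Interneurons gave a like picture, with 27.1% and 37.3% of same-cell beta pairs from the same gene against 7.99% and 6.72% between cells. Their gamma A and B pairs stood at 21.8% and 19.2% against 7.02% and 7.21%, and their alpha pairs at 21.7% and 27.0% against 13.7% and 17.2%. In RGCs 15.3% and 27.3% of 98 and 33 same-cell gamma A and B pairs were from the same gene, against 6.65% and 7.64%. The RGC alpha UMIs formed no pair in a cell.

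Pooled C-type genes did not show this excess in excitatory neurons, where 563 of their 1095 UMIs were from Pcdhgc3. Same-cell pairs of C-type UMIs were from the same C-type gene in 35.4% and 29.3% of cases there, against a mean of 35.6% between cells. Relative to the number of same-gene pairs that the between-cell rate gives when each cell is weighted by its depth, excitatory neurons held 7.12 times as many for beta, 4.402 times for alpha 1 to 12 and 3.85 times for gamma A and B. The same ratio was 0.98 for the C-type genes, and 1.13 for the 34 regulator and partner genes described further on. Pairs of different members of a cluster were at 1.40 times that number for beta, 1.56 for alpha and 1.09 for gamma A and B.

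Gene by gene, 30 members other than the C-type genes had 100 or more UMIs in excitatory neurons. Their ratios, pooled over both libraries, ran from 2.04 to 18.5 with a median of 5.01. The lowest, Pcdhga9, had ratios of 0.92 and 3.43 in WT replicates 1 and 6, and the other 29 lay above 2 in each library. Pcdhb7, with 333 UMIs, had 149 same-gene pairs where the depth-weighted rate gave 13.5, and up to 6 UMIs in a cell. Pcdhga12, with 572 UMIs, had 106 pairs against 38.8. Pcdhgc3, with a nearly equal 563 UMIs, had 39 pairs against 37.7 and never more than 2 UMIs in a cell. Pcdhgc4 had 6 pairs against 9.86 and Pcdhgc5 had 1 against 2.11, both too few to order. Pcdhac2 had 3 pairs against 1.12 (ratio 2.68) and Pcdhac1 1 pair against 0.0124, from 98 and 11 UMIs. These alpha C-type genes fell under the minimum of 100 UMIs, and the C-type pool does not speak for them. Taf7 and Diaph1, genes outside the clusters in the same chromosomal region, had ratios of 1.49 and 1.25. Excitatory subtypes were pooled here, and their part in these ratios was not tested.

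**Figure D3:**
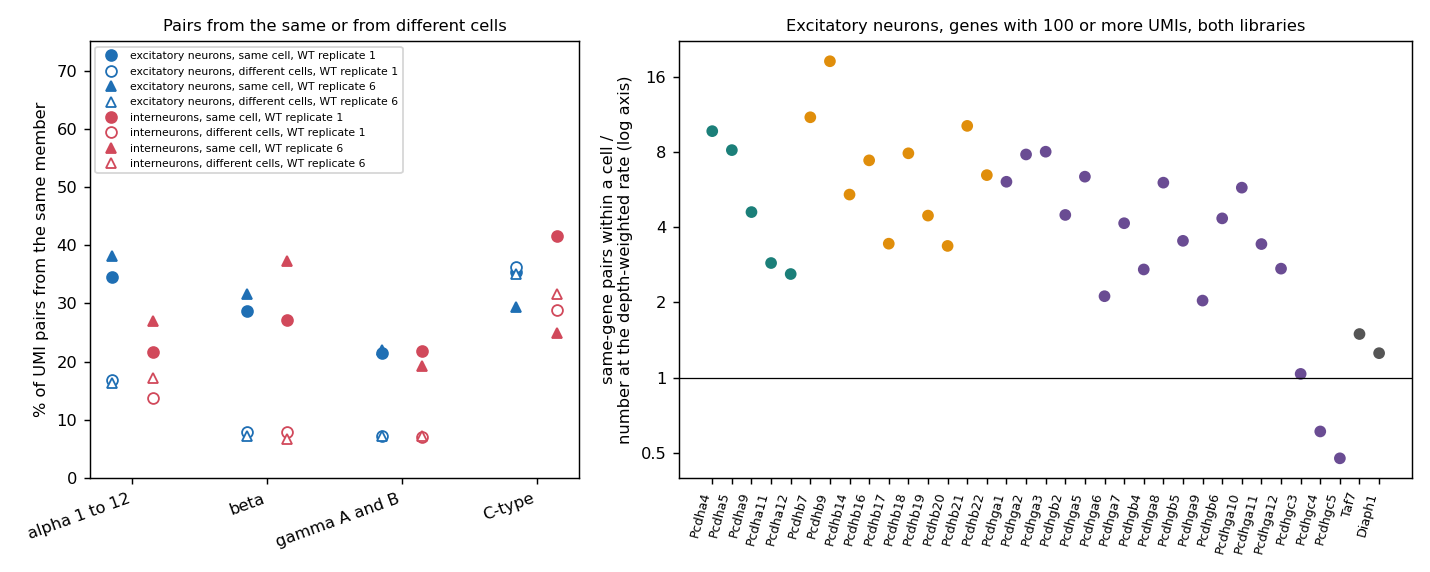
Left, share of UMI pairs from the same member (%) for pairs in the same cell (filled) and in different cells (open) of excitatory neurons and interneurons, by library. Right, same-gene pairs of excitatory neurons relative to the number at the depth-weighted rate, pooled over both libraries (log axis), for each member with 100 or more UMIs and for Taf7 and Diaph1, coloured by cluster (green alpha, orange beta, purple gamma, grey others). Pcdhgc3 lies at 1.03, and the pooled ratio of every alpha 1 to 12, beta and gamma A or B gene shown lies above 2, with Pcdhga9 at 0.92 in WT replicate 1 alone.

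In the comparison of excitatory neurons with RGCs, summed counts per class and library were tested across all genes with edgeR, and a gene was called at an adjusted p (Benjamini-Hochberg) under 0.05. Of 45 members tested, 28 were higher in excitatory neurons and 0 were lower, against 33.2% of all tested genes called higher, 31.2% lower and 64.3% in either direction. The 12 members not tested had too few counts, and alpha and beta members passed the count filter through their neuronal libraries, so their count is not a count over the clusters. All 8 tested alpha, 13 of 16 tested beta and 7 of 21 gamma genes were called higher. All 21 gamma members were tested. Their median log2 difference was 0.83, against 0.07 over all tested genes, and 21 of 21 differences were positive. Without TMM scaling (edgeR's correction for library composition) all genes moved by a median of -0.20 and 20 of the 21 were positive, and the split of all called genes went from 5099 higher and 4797 lower to 3996 and 5815.

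The 8 tested alpha members had 0 to 3 UMIs in RGCs over both libraries and passed the filter through excitatory neurons. Their calls and the size of their differences are thus no rank over the members, and 6 alpha members were not tested. Pcdha11 had 206 and 182 UMIs in excitatory neurons (9.09 and 7.89 CPM) and 1 and 0 in RGCs, a ratio of 46.1 with a counting interval from 8.23 to 1827 (adjusted p = 3.45e-05, edgeR). Pcdha4 had 49 and 54 UMIs in excitatory neurons and none in RGCs, at least 4.08-fold higher (adjusted p = 0.00158, edgeR), and Pcdha10 had 26 and 20 against none, at least 1.82-fold higher (adjusted p = 0.0144, edgeR). Pcdha5 (103 and 89 UMIs against 0 and 1), Pcdha12 (97 and 57 against 1 and 0), Pcdha9 (95 and 97 against 1 and 1) and Pcdha2 (32 and 34 against 0 and 1) were also called. No neuronal library overlapped with an RGC library in the level of any of these genes. The C-type alpha gene Pcdhac2 had 2.12 and 2.17 CPM in excitatory neurons and 0.715 and 0.379 in RGCs, a ratio of 3.88 with an interval from 1.29 to 19.2 (adjusted p = 0.0116, edgeR).

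Among beta members, Pcdhb9 had 54 and 46 UMIs in excitatory neurons and none in RGCs, at least 3.96-fold higher (adjusted p = 0.00209, edgeR). Pcdhb17 had 181 and 112 against 0 and 1 (ratio 34.8, interval 6.20 to 1380), and Pcdhb21 69 and 84 against 0 and 1 (ratio 18.2, interval 3.22 to 723). Pcdhb19 was at 6.22 and 5.46 CPM against 0.715 and 0.379 (log2 difference 3.57 ± 0.49 SE, adjusted p = 0.000171, edgeR). The most counted beta gene, Pcdhb7, was at 8.16 and 6.42 against 2.50 and 1.14 (log2 difference 2.18 ± 0.41, adjusted p = 0.00123, edgeR). Pcdhb20 and Pcdhb16 were called too, at log2 differences of 2.65 ± 0.46 and 2.48 ± 0.51. Pcdhb4, Pcdhb6, Pcdhb11, Pcdhb14, Pcdhb18 and Pcdhb22 completed the beta genes called.

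Gamma members had RNA in RGCs. The gamma gene with the largest difference, Pcdhga1, had 66 and 92 UMIs in excitatory neurons (2.91 and 3.99 CPM) and 2 and 3 in RGCs (0.715 and 1.14 CPM), a log2 difference of 2.09 ± 0.53 (adjusted p = 0.00676, edgeR). Pcdhga12 was at 11.2 and 13.8 CPM in excitatory neurons and 8.22 and 7.58 in RGCs (log2 difference 0.85 ± 0.22, adjusted p = 0.00735, edgeR). Pcdhga5 (1.23 ± 0.34), Pcdhga6 (1.39 ± 0.37) and Pcdhga7 (1.19 ± 0.32) were called as well. Of the C-type genes, Pcdhgc3, a gamma member that also acts in cells outside the nervous system, was at 12.5 and 12.1 against 9.29 and 8.72 (0.65 ± 0.19, adjusted p = 0.0132, edgeR). Pcdhgc4, which is needed for neuronal survival, was at 6.18 and 6.46 against 5.005 and 3.79 (0.71 ± 0.27, adjusted p = 0.0433, edgeR). Pcdhgc5 was not called, at 2.91 and 2.95 against 2.50 and 2.27 (0.49 ± 0.37, adjusted p = 0.275, edgeR). The calls of Pcdhac2, Pcdhgc3 and Pcdhgc4 were not kept in every alternative, with adjusted p up to 0.0994, 0.101 and 0.217 (from 0.00479, 0.00882 and 0.0160), and those of Pcdha2 and Pcdha10 reached 0.124 and 0.0730. The calls of the beta genes Pcdhb4, Pcdhb6, Pcdhb11 and Pcdhb18 were not kept either, with adjusted p up to 0.139, 0.224, 0.128 and 0.102.

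**Figure D4:**
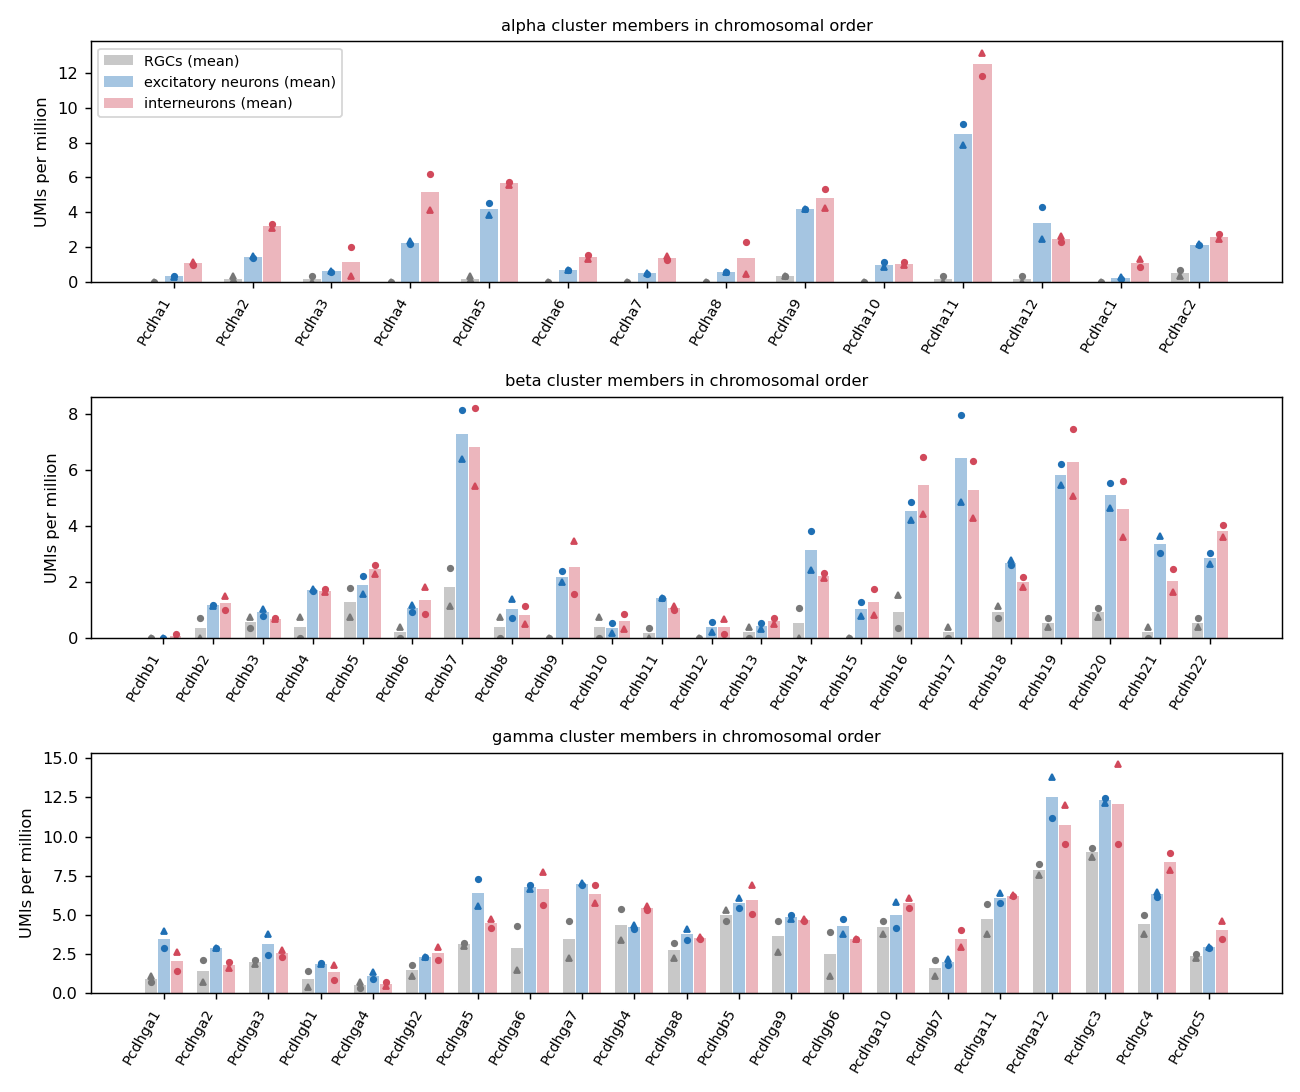
CPM (vertical axis) of each member in RGCs (grey), excitatory neurons (blue) and interneurons (red), in chromosomal order, with bars for the mean and points for WT replicate 1 (circles) and WT replicate 6 (triangles). Alpha members are close to 0 in RGCs, while Pcdhga12 and Pcdhgc3 are at 7.58 or above there in both libraries.

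In interneurons against RGCs, 16 of 30 tested members were called higher and 0 lower, where 34.0% of all tested genes were called higher and 67.5% in either direction. They were the 7 tested alpha genes, 6 of 7 tested beta genes and 3 of 16 tested gamma genes. The other 27 members were not tested, and alpha and beta members passed the count filter through the interneuron libraries, so that this is no count over the clusters. Pcdha11 had 82 and 80 UMIs in interneurons against 1 and 0 in RGCs, a ratio of 67.6 (interval 11.96 to 2687, adjusted p = 2.25e-06, edgeR), and Pcdha4 had 43 and 25 against none, at least 9.46-fold higher. Pcdhb17 had 44 and 26 UMIs against 0 and 1, and Pcdhb19 was at 7.49 and 5.09 CPM against 0.715 and 0.379 (log2 difference 3.58 ± 0.59, adjusted p = 0.000189, edgeR). The gamma genes called were Pcdhga6, Pcdhga7 and Pcdhgc4. Pcdhgc4 was at 8.93 and 7.89 CPM against 5.005 and 3.79 (1.05 ± 0.32, adjusted p = 0.0113, edgeR), whereas Pcdhgc3, at 9.51 and 14.6 against 9.29 and 8.72, was not called (0.53 ± 0.28, adjusted p = 0.113, edgeR). With no filter on low counts more members and more genes entered the fit, so the count of calls there describes the setting and is no result about the members. The calls of Pcdhga6, Pcdhga7, Pcdhgc4, Pcdha12 and Pcdhac2 were not kept in every alternative, where their adjusted p reached 0.158, 0.278, 0.162, 0.0805 and 0.149.

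In IPCs against RGCs only 9 members passed the filter, none of them alpha or beta. Pcdhgc3 was called lower, with 6 and 5 UMIs in IPCs (3.81 and 2.96 CPM) against 26 and 23 in RGCs (9.29 and 8.72), which gave -1.36 ± 0.43 log2 units (adjusted p = 0.0255, edgeR), where 19.9% of all tested genes were called lower. The IPC and RGC libraries did not overlap. Over the 8 alternatives its adjusted p ran from 0.0106 to 0.365, and the call was lost with DESeq2 and with a stricter gate. Pcdhgc4 was at 8.26 and 7.70 CPM in IPCs (0.88 ± 0.41, adjusted p = 0.116, edgeR), not called. With the library as a block Pcdhga6 was called as well, higher in IPCs.

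Interneurons and excitatory neurons differed in the alpha cluster. Of 51 members tested, 6 were called higher in interneurons, all of them alpha genes, and 0 lower, where 22.7% of all tested genes were called higher and 22.9% lower. Without TMM scaling the split of all called genes went from 3556 higher and 3592 lower to 4266 and 2720, and 11 of 12 alpha differences were positive under either scaling and 10 of 12 with DESeq2's size factors. Summed alpha was higher in interneurons by 0.59 and 0.58 log2 units in the same libraries (a mean of 1.499-fold), while the beta sum differed by -0.00 and -0.08 and the gamma sum by -0.10 and 0.01. The genes called were Pcdhac1 (6 and 8 UMIs against 4 and 7, or 0.864 and 1.31 CPM against 0.177 and 0.303), Pcdha1 (1.01 and 1.15 CPM against 0.353 and 0.303), Pcdha7 (1.30 and 1.48 against 0.485 and 0.520), Pcdha4 (6.20 and 4.11 against 2.16 and 2.34), Pcdha2 (3.31 and 3.12 against 1.41 and 1.47) and Pcdha11 (11.8 and 13.1 against 9.09 and 7.89). In each of them both interneuron libraries lay above both excitatory libraries.

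The largest of these differences were 2.03 ± 0.54 log2 units for Pcdhac1 (SE, adjusted p = 0.0155, edgeR) and 1.60 ± 0.47 for Pcdha1 (adjusted p = 0.0241, edgeR), both of low counts. Pcdha4 followed with 1.11 ± 0.27 (adjusted p = 0.0107, edgeR). Pcdha11 differed by 0.46 ± 0.15 (adjusted p = 0.0399, edgeR). DESeq2 called 0 of 57 members, with 2 at an unadjusted p under 0.05, where it called 2252 of all genes higher and 2497 lower. The adjusted p of Pcdha4 with DESeq2 and in the other alternatives reached 0.0588 at most. For the other 5 genes the highest value over the alternatives lay between 0.140 and 0.260. With the library as a block the calls also took in Pcdhgb7, higher in interneurons, and Pcdhb21, Pcdhga1 and Pcdhga5, lower there. The C-type genes Pcdhac2 (0.19 ± 0.28), Pcdhgc3 (-0.14 ± 0.18), Pcdhgc4 (0.32 ± 0.17) and Pcdhgc5 (0.36 ± 0.25) were not called.

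**Figure D5:**
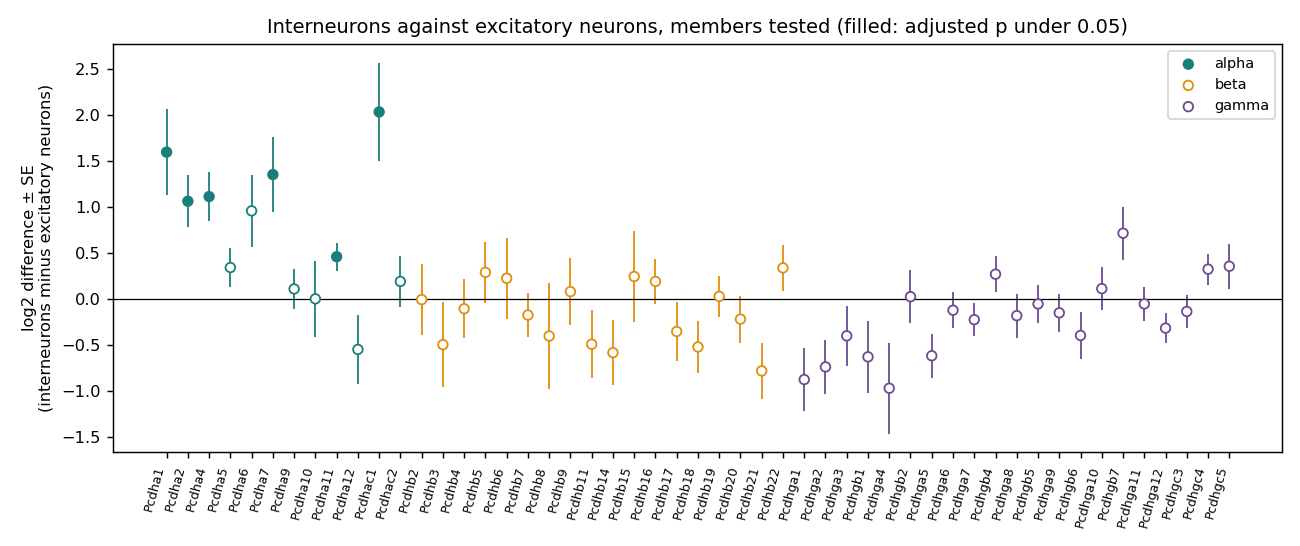
log2 difference between interneurons and excitatory neurons (edgeR estimate ± SE, vertical axis) for the 51 members tested, in chromosomal order. Filled points, all in the alpha cluster, have an adjusted p under 0.05, and 11 of 12 alpha genes lie above 0.

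MGE-type and CGE-type interneurons, which come from the medial and the caudal ganglionic eminence, could be compared for 11 members. None was called by edgeR (0 at an unadjusted p under 0.05), where 6.44% of all tested genes were called, 3.33% higher and 3.11% lower. DESeq2 called none either (0 of 57, 0 at an unadjusted p under 0.05), where it called 208 of all genes higher and 179 lower. The alpha sum was 52.5 and 44.1 CPM in MGE-type and 44.7 and 49.2 in CGE-type interneurons, and overlapped. Differences between the 11 members ran from -0.55 to 0.56 log2 units. Striatal neurons, with 47.1 and 40.3 alpha, 59.3 and 58.9 beta and 109 and 104 CPM of gamma, overlapped with interneurons in the alpha, beta and gamma sums.

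Cajal-Retzius cells, early-born Reelin-producing neurons, had 62 cells and 96 member UMIs in all. Their alpha sum was 51.9 and 30.5 CPM, their beta sum 40.4 and 47.5 and their gamma sum 83.6 and 40.7, against 102 and 108 CPM of gamma in excitatory neurons. Pcdhgb5 was called lower among 47 tested members, with no UMI in Cajal-Retzius cells and 123 and 141 in excitatory neurons, at least 1.23-fold lower (adjusted p = 0.0483, edgeR), where 12.6% of all tested genes were called lower and 9.7% higher. With the library as a block it was not called (adjusted p = 0.0576, edgeR), and in the 7 alternatives with a value its adjusted p ran from 0.0329 to 0.132. Pcdhgc3, at 2.88 and 6.79 CPM, was not called (-1.65 ± 0.61, adjusted p = 0.0757, edgeR). Without TMM scaling all genes moved by 0.26 log2 units, the split of all called genes went from 1403 higher and 1825 lower to 2111 and 1145, and 7 rather than 4 of 9 tested alpha members were positive.

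A list of 34 regulators and partners of the clustered protocadherins was read in the same fits. In excitatory neurons against RGCs, 1 of 12 CTCF and cohesin genes was called higher and 8 lower, 4 of 10 genes of DNA methylation and silencing were higher and 3 lower, and 8 of 12 intracellular partners and shedding enzymes were higher and 3 lower, where 33.2% of all tested genes were called higher, 31.2% lower and 64.3% in either direction. Ctcf itself, which binds the promoters, was not called, at 150 and 145 CPM against 171 and 158 (0.04 ± 0.08, adjusted p = 0.673, edgeR). The cohesin subunits Stag2 (68.2 and 68.4 against 213 and 196, log2 difference -1.39 ± 0.08) and Rad21 (68.1 and 64.9 against 211 and 183, -1.37 ± 0.09) were lower in neurons. Dnmt3a, a de novo DNA methyltransferase, was also lower (-1.30 ± 0.10), as was Smchd1, a silencing factor of these clusters (-0.33 ± 0.07). Setdb1, a histone methyltransferase, and Dnmt3b, a de novo methyltransferase of these promoters, were not called, and Dnmt3b was low (3.001 and 2.77 CPM against 3.93 and 2.65).

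Among the partners, the actin-regulating WAVE complex genes Cyfip2 (1.49 ± 0.10) and Wasf1 (1.41 ± 0.10) were higher in excitatory neurons than in RGCs. The kinase gene Ptk2b was at 1.85 and 0.997 CPM in excitatory neurons with no UMI in RGCs. Interneurons against RGCs gave 13 of 33 genes higher and 12 lower, where 34.0% of all tested genes were called higher, 33.4% lower and 67.5% in either direction. They were led by Rad21 (-1.25 ± 0.11), Stag2 (-0.96 ± 0.10) and Smc1a (-0.73 ± 0.10) on the lower side and Cyfip2 (1.42 ± 0.12), Wasf1 (1.17 ± 0.11) and Mau2 (0.93 ± 0.13) on the higher. In IPCs against RGCs 6 of 32 were higher and 4 lower, with Dnmt3a at -1.20 ± 0.19 and Cyfip2 at 1.26 ± 0.17. These shares stood beside 35.9% of all genes called there.

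Between interneurons and excitatory neurons, 10 of the 34 were higher in interneurons and 7 lower, against 45.6% of all genes called. Dnmt3a was at 83.1 and 79.4 CPM in interneurons and 32.5 and 32.9 in excitatory neurons (1.22 ± 0.07), and the cohesin subunit Stag1 at 362 and 351 against 178 and 175 (0.92 ± 0.07). Both exceeded the spread between libraries many times. Ptk2, a focal adhesion kinase bound by protocadherins, was lower (-0.42 ± 0.06), as was Trim28 (-0.42 ± 0.07). Ctcf (-0.13 ± 0.06), Smchd1 (-0.00 ± 0.07), Setdb1 (-0.10 ± 0.07) and Dnmt3b (0.20 ± 0.25) were not called. In Cajal-Retzius cells against excitatory neurons 1 gene was higher and 9 lower, where 22.3% of all genes were called, with Dnmt3a at 173 and 190 CPM (2.21 ± 0.15) and Ctcf at 83.6 and 91.6 (-1.01 ± 0.16). None of the 32 tested was called between MGE-type and CGE-type interneurons by edgeR.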

How the data were processed

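The 3′ v3.1 droplet libraries were processed by the authors with Cell Ranger 7.0.0 on mm10, per the labels. The authors deposited unnormalized UMI counts for each gene in each called cell. Whether intronic reads were counted was not given in the sources used here. Doublets were scored against simulated doublets (2 per cell, 30 principal components, 2000 variable genes, 15 neighbours) and removed in proportion to the number of called cells. Gate thresholds were set after marker counts were seen. Members and lists were chosen with earlier results of these data known. Named genes were the C-type genes, the 5 most counted members of each cluster, up to 10 called members with the largest difference per comparison, up to 3 called regulators per direction, and Ctcf, Smchd1, Setdb1 and Dnmt3b. UMIs were summed per class and library and tested with edgeR 4.0.16 (quasi-likelihood, TMM, filterByExpr, no block), and with DESeq2 1.42.0 as an alternative. P-values rest on 2 embryos. Classes of the same embryo are paired: deviations from class means of the same library correlated at r = 0.10 to 0.34 over genes. Folds against 0 UMIs used a floor of 3 counts over both libraries, and folds on 1 to 3 UMIs carry 95% exact intervals. Within-library differences used a prior of 0.5 UMI. Same-member pairs, their depth-weighted ratios and the minimum of 100 UMIs were chosen after the data were seen. Own exonic bases came from GENCODE vM39 (lengths only). The fit was tested on simulated data with 200 changed genes: in MGE-type against CGE-type interneurons, over 10446 genes, it recovered 65% of genes changed by 1 log2 unit and 96% of those changed by 2. The changed genes were drawn only from genes with an expected count of 10 or more in each class and library. Recovery was not measured at lower counts, where most members lie in CGE-type interneurons.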

Additional observations from a re-analysis of the deposited data

How the results depend on the processing

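No called member changed direction under the alternatives run. Among the summed differences without a clear direction, gamma in interneurons against excitatory neurons was 0.01 without WT replicate 1, alpha in MGE-type against CGE-type interneurons went from 0.02 to -0.17 with a stricter gate, gamma there from 0.12 to -0.02, and alpha in striatal neurons against interneurons from -0.03 to 0.09. The number of members tested and the share of all genes called also changed with the setting. The counts below therefore describe the settings and are no result about the members. The count of members called (edgeR, adjusted p under 0.05) moved by more than 1.5 times as follows. With all classes in a single fit, where fewer members passed the filter, it was 5 in excitatory neurons against RGCs, 2 in IPCs, 5 in interneurons against RGCs, 0 in interneurons against excitatory neurons and 0 in Cajal-Retzius cells. DESeq2 gave 0 in IPCs, 0 in interneurons against excitatory neurons and 0 in Cajal-Retzius cells. Over all genes DESeq2 called 920 higher and 1266 lower in IPCs, and 2252 and 2497 in interneurons against excitatory neurons. In Cajal-Retzius cells these numbers were 1855 and 1416. With no filter on low counts the count of members was 2 in IPCs, 28 in interneurons against RGCs and 0 in Cajal-Retzius cells. Under the replicate block, which pairs classes by library, the count was 2 in IPCs, 10 in interneurons against excitatory neurons and 0 in Cajal-Retzius cells, and Pcdhgb5 was the only call of a named member lost under the block. The stricter cell filter gave 2 in IPCs and 0 in Cajal-Retzius cells, the stricter gate 0 and 2, and no TMM scaling 0 in Cajal-Retzius cells. The causes were not tested. Among the members named, 43 values lost their call and 319 kept it, and 22 of the losses came with DESeq2.

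The summed log2 differences moved by more than the spread between libraries with a stricter gate (one more marker) and with likely doublets kept: for alpha to 3.31 and 2.74 in excitatory neurons against RGCs, 0.61 and 0.99 in IPCs, 3.83 and 3.31 in interneurons against RGCs and 0.52 and 0.57 in interneurons against excitatory neurons, where the stricter cell filter gave 0.63. Beta went to 2.01 and 1.99 in excitatory neurons and interneurons against RGCs with doublets kept, and to -0.11 between the neuronal classes with a stricter gate. Leaving out a library gave 3.78 to 4.06 for alpha and 0.34 to 0.88 for gamma in excitatory neurons against RGCs.

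Detection depended on depth. At 1500 UMIs, 4000 UMIs and without thinning, excitatory neurons had 3.93%, 10.1% and 20.2% of cells with alpha, 7.44%, 17.7% and 31.7% with beta and 14.7%, 32.8% and 53.8% with gamma. Interneurons had 5.81%, 16.01% and 16.7%, 6.39%, 17.0% and 17.8%, and 13.9%, 32.7% and 33.8%. RGCs had 10.4%, 22.4% and 44.1% with gamma, 3.52% and 7.80% with beta at 4000 UMIs and unthinned, and 1.82% with alpha unthinned. With the stricter gate the shares were 0.935%, 1.504% and 12.8% in RGCs for alpha, beta and gamma, 18.9% in excitatory neurons for gamma and 7.78% in interneurons for alpha, and RGC beta was 1.94% with doublets kept. The same-member share of gamma A and B pairs was 21.0%, 21.3% and 19.99% in excitatory neurons with the stricter gate, stricter cell filter and doublets kept, and 17.7% in interneurons with the stricter gate. Counts in RGCs, IPCs and Cajal-Retzius cells limit every statement on single alpha and beta members there.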

Other observations

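Beta members that are neighbours on the chromosome were found in the same excitatory neuron more often than distant ones. Pairs of different, adjacent beta genes stood at 2.62 and 2.57 times the number at the depth-weighted rate in WT replicates 1 and 6, from 120 and 82 pairs. Genes 2 or 3 places apart stood at 1.66 and 1.63, and genes 4 or more places apart at 1.09 and 1.16. Gamma A and B genes showed 1.34 and 1.13 for neighbours against 1.01 and 1.09 for distant pairs, and alpha neighbours 1.001 and 2.03. Across clusters, beta with gamma stood at 0.98 and 1.07, alpha with gamma at 1.17 and 0.98 and alpha with beta at 1.15 and 1.33. The adjacent genes Pcdhb21 and Pcdhb22 had 90.3% and 93.1% own exonic bases, and the other beta genes 100%. Whether reads assigned to the wrong neighbour gave part of these pairs was not tested. No test was run on these ratios.

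Other transcripts annotated at the alpha and gamma loci, which are no members, were chosen after their values were seen. Of the 6 looked at, 5 had both interneuron libraries above both excitatory libraries, and BC037039 overlapped, at 4.90 and 7.56 against 5.25 and 6.11 CPM. No test was run on them. Gm10544, at the alpha locus, was at a mean of 40.7 CPM (UMIs per 1000000 UMIs of the class) in interneurons, 35.7 in striatal neurons, 21.2 in excitatory neurons, 21.4 in IPCs and 5.14 in RGCs. Gm26672, at the gamma locus, was at 56.4 in interneurons, 27.8 in excitatory neurons and 19.7 in RGCs. In IPCs the level of Gm10544 was thus as high as in excitatory neurons, while summed alpha was at 6.52 there against 30.1.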
